A study of Mus musculus with 19 samples.

Results

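Solute carriers are the membrane proteins that move amino acids, sugars, ions, metals, nucleotides and vitamins across cell and organelle membranes. The genes described here are the 93 of 6376 genes in a table of sorted mouse astrocytes whose symbol starts with Slc and a family number. Slc1a2, Slc1a3, Slc4a4, Slc7a10, Slc38a1, Slc2a1, Slc40a1 and Slc11a1 were left out by name, and 7 of these 8 were in the table. The 93 members fall into 37 families. Slc9a3r1 is a scaffold protein that binds an exchanger and Slc4a1ap is named for binding one, so these 2 members encode no carrier. The same study measured sorted microglia, where 37 of the members are among 3067 genes, and sorted monocytes, where 38 are among 3776. Of the 93, 31 were in all 3 tables and 49 in the astrocyte table alone.

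All mice were female, wild type, of strain C57Bl/6 and at postnatal day 85, and all had experimental autoimmune encephalomyelitis (EAE), a model of multiple sclerosis in which an immune response to myelin inflames the central nervous system. For this each mouse was injected with MOG35-55, a peptide of myelin, at 25 µg with complete Freund's adjuvant. Every mouse had received a lentivirus in the brain, which was pLenti-Gfap-GFP-shScramble in the controls and pLenti-Gfap-GFP-shXbp1 in the others, and in which the promoter of the astrocyte gene Gfap sits before GFP and a short hairpin RNA. The control hairpin was scrambled (shScrmbl), and the other was aimed at Xbp1 (shXbp1). Astrocytes gave 4 libraries of each kind, microglia 4 shScrmbl and 3 shXbp1, and monocytes 2 of each. The labels do not say that GFP was used in the sort, so a sorted population may hold cells that the virus did not reach. They record 1 nervous system per mouse, and p-values here measure the spread between libraries.

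Carriers of the plasma membrane set what an astrocyte takes up from blood, synapse and extracellular fluid, carriers of the inner mitochondrial membrane exchange nucleotides, phosphate and metabolites with the cytosol, and carriers of the endoplasmic reticulum (ER) and Golgi bring in the activated sugars and ATP that protein folding and glycosylation use. XBP1 is one of the transcription factors that run the unfolded protein response, the programme that adjusts the ER to its load of proteins. ATF4, which acts in another arm of that response, is known to drive amino acid carriers such as Slc7a11, Slc3a2 and Slc38a2.

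Only transcript ends (3′) were counted, so a signal does not grow with gene length, and the deposited values are a normalized signal per gene and library. Whole counts could be recovered from them. The astrocyte libraries held 32842 to 302003 counts, and a single count was worth a signal of 27.6 in the shallowest and 4.22 in the deepest library. Xbp1 itself had a signal of 20.1, 71.7, 79.9 and 27.6 in astrocyte shScrmbl replicates 1 to 4 and of 34.1, 52.9, 31.2 and 79.7 in shXbp1 replicates 1 to 4, from 1 to 17 counts per library. These groups overlap with nearly equal means (49.8 ± 30.3 against 49.5 ± 22.3, mean ± SD, n = 4 each), so no lowering of Xbp1 was detectable at this depth, and shScrmbl and shXbp1 name the libraries as labelled. In microglia (51.9, 50.5, 103 and 0 against 76.0, 69.0 and 0) and monocytes (126 and 182 against 303 and 126) the Xbp1 groups overlapped as well. Of 12 astrocyte markers 10 were in the astrocyte table, while Gfap and Ntsr2 were not. The 10 summed to a signal of 671 to 1103 in the controls and 1275 to 1893 in shXbp1. All 10 microglia markers and 10 of 11 choroid plexus markers were in that table too. The choroid plexus markers summed to 211610 to 309747 in the controls and 149221 to 273800 in shXbp1, and most of that sum was Ttr. By edgeR 7 of these 10 markers were higher in shXbp1 and 3 lower. What share of a member's signal came from astrocytes was not tested. The choroid plexus transcript Ttr had a signal of 126561 to 269928 in every astrocyte library, far above any member. Summed microglia markers gave 8755 in shScrmbl replicate 2, the deepest library, and 1499 to 2772 in the other 7. The 3 measured monocyte and macrophage markers summed to 4044 in that library and 153 to 664 in the other 7.

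Among the 93 members the median of the mean signal over the 8 astrocyte libraries was 37.2, beside 47.5 for all 6376 genes measured. The most abundant 10 members ranged from 208 to 841. Slc25a5 and Slc25a4, the ADP/ATP carriers of the inner mitochondrial membrane, led with means of 841 and 785. Next stood Slc6a20b (662), a near copy of the imino acid carrier gene Slc6a20a, then the mitochondrial phosphate carrier Slc25a3 (386) and the Na-K-2Cl cotransporter Slc12a2 (363). Slc3a2, the heavy chain that carries amino acid exchangers to the surface, had a mean of 264. The lipocalin-2 receptor Slc22a17 (230.5), the mitochondrial glutathione carrier Slc25a39 (227) and the glutamine carrier Slc38a2 (208) had lower means. The spread of these genes between libraries was wide enough that neighbours in this order mostly overlap, as the plot of the most abundant members shows. How reads of the near copies Slc25a4 and Slc25a5, or Slc6a20b and Slc6a20a, were assigned is not given in the sources used here, so these 3 levels are uncertain.

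**Figure D1:**
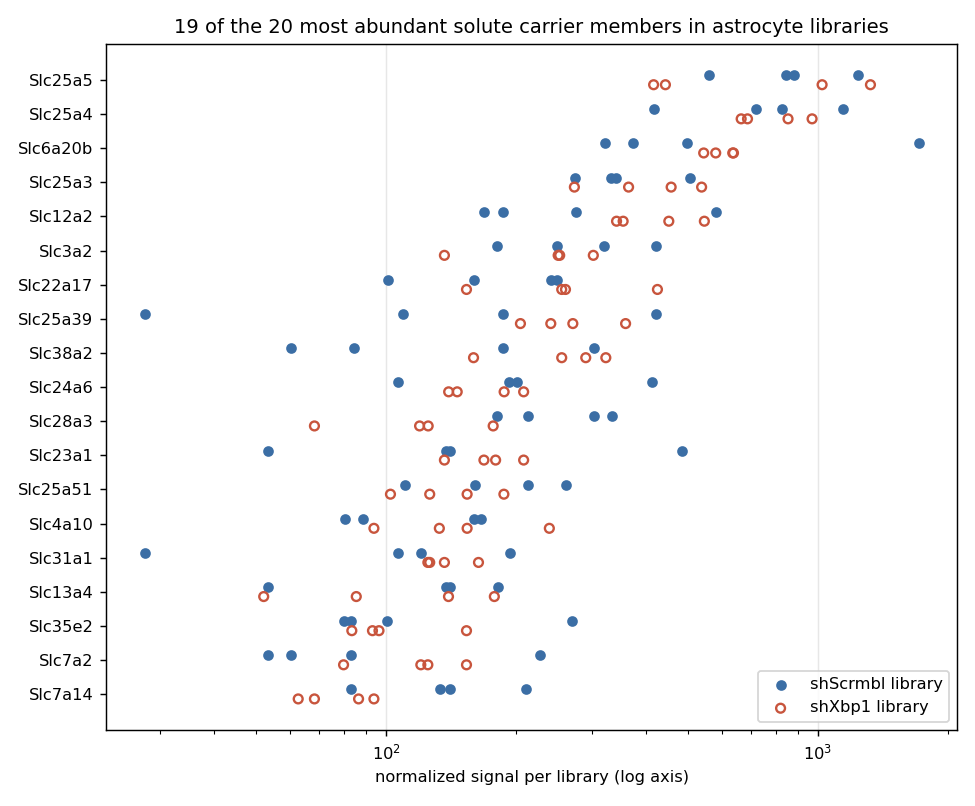
Normalized signal (log axis) of 19 of the 20 solute carrier members with the highest mean in astrocytes, ordered by that mean; each filled point is 1 of 4 shScrmbl libraries and each open point 1 of 4 shXbp1 libraries. The groups overlap for all of these genes except Slc28a3, and a single library can stand far from the rest, such as the 1712 of Slc6a20b.

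No member differed between shXbp1 and shScrmbl astrocytes after adjustment. With limma on log2(signal + 1), 0 of 93 had an adjusted p under 0.05, and 0 of 6366 genes tested (0%) did. At an unadjusted p under 0.05 limma listed 3 members (4.68% of all genes) and edgeR 7 (6.52% of all genes), with DESeq2 at 3 members (2.06% of all genes). edgeR called 1 gene of 6366 (0.0157%), not a member, and DESeq2 called none. On the limma scale 67 members had a higher mean log2 signal in shXbp1 and 26 a lower one, with a median difference of 0.49 beside 0.42 for all genes, of which 68.2% were higher. On the edgeR scale 44 were higher and 49 lower, with a median of -0.09 beside 0.05 for all genes, of which 53.5% were higher. The 2 scales gave the same sign for 64 of 93 members. Without shScrmbl replicate 2 the edgeR split became 61 higher and 32 lower, with a median of 0.22 beside 0.19 for all genes. The direction of the members as a group thus turned with the scale and with 1 library, while the members' median lay close to that of all genes on each of them. Log2 differences on the limma scale rest on the added 1 and are large for genes with a 0 in some library.

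**Figure D2:**
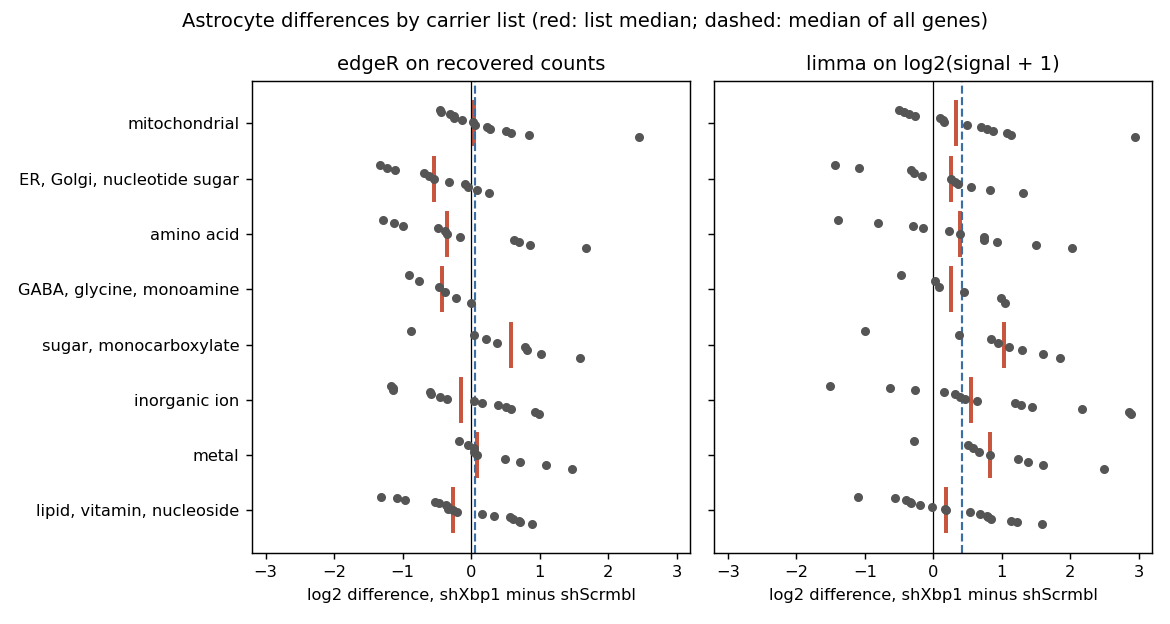
Log2 difference between shXbp1 and shScrmbl astrocytes for each listed member (grey points), by carrier list, from edgeR on recovered counts (left) and limma on log2(signal + 1) (right); red marks are list medians and the dashed line is the median of all genes tested. Sugar and monocarboxylate carriers have medians of 0.58 and 1.03, beside 0.05 and 0.42 for all genes. By edgeR without shScrmbl replicate 2 their median is 0.31 beside 0.19. Most points move to the right on the limma scale.

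Only 3 members had groups that do not overlap, and all 3 were lower in shXbp1, where 0.785% of all genes were lower without overlap and 2.37% higher. Slc28a3 is a sodium-driven carrier of purine and pyrimidine nucleosides. For it, shScrmbl replicates 1 to 4 had a signal of 181, 333, 213 and 303, and shXbp1 replicates 1 to 4 had 68.2, 125, 177 and 119.5. The highest shXbp1 library lay just under the lowest control library (258 ± 72.4 against 122 ± 44.5, mean ± SD, n = 4 each). The limma difference was -1.10 (SE 0.41, 95% interval -1.94 to -0.26, adjusted p = 0.824) and edgeR gave -1.08 (adjusted p = 0.681). Slc35g1 encodes a membrane protein of the ER in the nucleotide sugar carrier family. For this gene shScrmbl replicates 1 to 4 had a signal of 80.2, 105, 107 and 110.3, and shXbp1 replicates 1 to 4 had 34.1, 33.7, 20.8 and 73.04. Here the gap between the groups was 73.0 to 80.2, on 37 counts over the controls and 22 over shXbp1 (101 ± 13.7 against 40.4 ± 22.6, mean ± SD, n = 4 each). Its limma difference of -1.43 (SE 0.53, 95% interval -2.52 to -0.34, adjusted p = 0.824) was the one with the smallest p among the members, and edgeR gave -1.23 (adjusted p = 0.706). Slc5a6 is the sodium-driven carrier of biotin and pantothenate. In its case shScrmbl replicates 1 to 4 had a signal of 100.3, 67.5, 79.9 and 165, and shXbp1 replicates 1 to 4 had 34.1, 48.1, 62.5 and 53.1. The controls spread more than shXbp1 (103 ± 43.6 against 49.5 ± 11.8, mean ± SD, n = 4 each), and its limma difference was -0.99 (SE 0.49, adjusted p = 0.824). Slc5a6 overlaps Atraid on the opposite strand, and whether counting used the strand is not given in the sources used here. Libraries, not cells, were compared, so fewer cells of a type and less RNA per cell cannot be told apart.

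**Figure D3:**
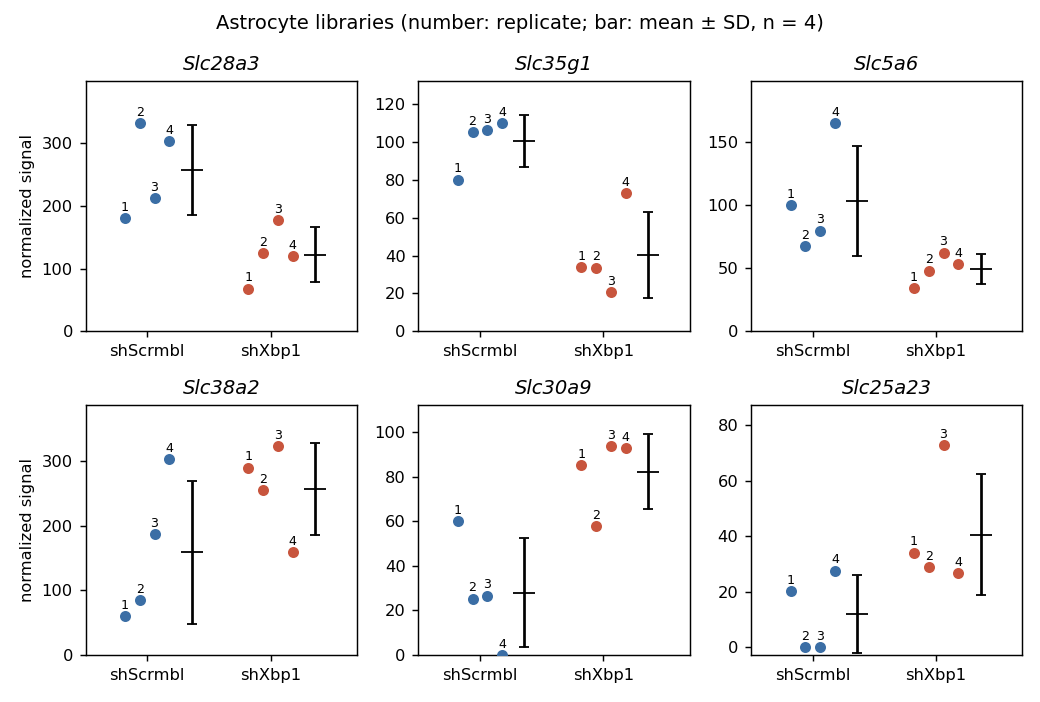
Normalized signal of 6 members in each astrocyte library, with the replicate number above each point and the mean ± SD (n = 4) beside each group. Slc28a3, Slc35g1 and Slc5a6 are lower in every shXbp1 library, and for Slc38a2, Slc30a9 and Slc25a23 the groups overlap and the shXbp1 mean is higher.

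The windows of 250 bases before the RefSeq start (GRCm38.p6) are shown for Slc28a3 and Slc35g1, the members with the smallest p, and for Slc22a17, the member whose window holds the longest XBP1 motif found. Slc28a3 lies on the minus strand with its window at chr13:58610878-58611127, Slc35g1 on the plus strand at chr19:38395730-38395979 and Slc22a17 on the minus strand at chr14:54913133-54913382. None of these windows overlaps an annotated exon. Letters are lower case, and capitals mark a TGACGTG.
Slc28a3: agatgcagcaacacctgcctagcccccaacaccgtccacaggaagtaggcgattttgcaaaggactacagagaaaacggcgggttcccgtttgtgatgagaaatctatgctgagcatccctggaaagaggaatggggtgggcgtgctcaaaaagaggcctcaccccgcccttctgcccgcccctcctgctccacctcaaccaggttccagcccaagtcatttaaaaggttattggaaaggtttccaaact
Slc35g1: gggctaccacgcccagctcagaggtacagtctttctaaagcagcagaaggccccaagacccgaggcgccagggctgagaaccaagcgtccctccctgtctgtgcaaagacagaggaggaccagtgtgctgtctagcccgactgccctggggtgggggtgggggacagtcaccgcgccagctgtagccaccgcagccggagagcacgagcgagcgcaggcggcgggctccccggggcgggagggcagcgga
Slc22a17: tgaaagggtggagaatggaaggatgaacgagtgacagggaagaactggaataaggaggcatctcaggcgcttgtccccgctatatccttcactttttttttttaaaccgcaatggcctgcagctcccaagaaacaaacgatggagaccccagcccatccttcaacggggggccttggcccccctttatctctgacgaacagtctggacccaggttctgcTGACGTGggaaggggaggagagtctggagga
Windows were searched on both strands for ACGTG, the core that XBP1 is known to bind, for TGACGTG, which contains it, for the ER stress element, CCAAT and CCACG with 9 bases between them, and for TGATGNAA, the element of ATF4. RefSeq windows were found for 71 of 93 members, 91 windows in all. ACGTG was in 14 of the 91 (15.4%, from 13 genes) beside 16.6% of 32851 promoters, and TGACGTG in 1 of 91 (1.10%) beside 1.65%. The ER stress element was in none of the 91 and in 37 of all promoters. TGATGNAA was in 3 windows (3.30% beside 3.45%), those of Slc7a11, Slc50a1 and Slc9a9. Neither Slc28a3 nor Slc35g1 held any of these letters in its window. The members' shares were close to those of all promoters, and a match of letters is no binding site by itself.

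Slc30a9, a zinc carrier of mitochondria, had the third smallest p by limma (adjusted p = 0.824, edgeR adjusted p = 0.699). For it shScrmbl replicates 1 to 4 had a signal of 60.2, 25.3, 26.6 and 0, and shXbp1 replicates 1 to 4 had 85.3, 57.7, 93.7 and 92.96. Only shScrmbl replicate 1 reached into the range of shXbp1, and edgeR put the log2 difference at 1.47. Slc38a2 takes up glutamine and other small neutral amino acids. There shScrmbl replicates 1 to 4 had a signal of 60.2, 84.3, 186 and 303, and shXbp1 replicates 1 to 4 had 289.9, 255, 323 and 159. The groups overlap, with a difference of 0.92 by limma (SE 0.47, adjusted p = 0.824) and 0.86 by edgeR (adjusted p = 0.762). Slc25a23, the calcium-sensitive ATP-Mg/phosphate carrier of mitochondria, was at 0 in shScrmbl replicates 2 and 3. Its control libraries held 2 counts in all and the shXbp1 libraries 19, and shScrmbl replicates 1 to 4 had a signal of 20.1, 0, 0 and 27.6, and shXbp1 replicates 1 to 4 had 34.1, 28.9, 72.9 and 26.6. edgeR gave 2.45 (adjusted p = 0.683), the highest edgeR difference of any member, and 1.14 without shScrmbl replicate 2. By limma the difference was 2.95, or 1.38 and 0.55 with pseudocounts of 10 and 50. The ratio of pooled counts was 6.68 with an exact binomial interval of 1.61 to 59.1, which covers counting error only and not the spread between libraries. The gene overlaps Crb3 on the opposite strand.

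Of the remaining members with the smallest limma p, Slc4a2 exchanges chloride for bicarbonate. For Slc4a2 shScrmbl replicates 1 to 4 had a signal of 120.4, 21.1, 0 and 27.6, and shXbp1 replicates 1 to 4 had 68.2, 52.9, 114 and 73.04, and its group means were 42.3 ± 53.4 and 77.2 ± 26.3 (SD, n = 4 each, limma adjusted p = 0.824). It overlaps Fastk on the opposite strand. Slc7a14, a lysosomal relative of the cationic amino acid carriers, was the other way round. Its controls read 140.4, 211, 133 and 82.7 and its shXbp1 libraries 68.2, 62.6, 93.7 and 86.3, so only shScrmbl replicate 4 fell within the shXbp1 range (limma -0.80, adjusted p = 0.824; edgeR -0.996, adjusted p = 0.722). Slc9a9, an endosomal sodium/proton exchanger, and Slc4a7, a sodium bicarbonate cotransporter, show how the scales part. Slc9a9 was at 0 in 3 control libraries and at 110 in shScrmbl replicate 2, beside 17.1, 24.1, 31.2 and 19.9 in shXbp1. Its limma difference was 2.86 and its edgeR difference -1.17. Slc4a7 was likewise at 0 in 3 controls and at 42.2 in shScrmbl replicate 2, beside 17.1, 9.62, 31.2 and 19.9, with 2.89 by limma and -0.35 by edgeR. By edgeR the other members under an unadjusted p of 0.05 were Slc29a3, a lysosomal nucleoside carrier (-1.31, adjusted p = 0.683), and the scaffold Slc9a3r1 (1.57, adjusted p = 0.75), both named after their values were seen. Slc29a3 rests on shScrmbl replicate 2, whose signal of 236 stands beside 0 to 60.2 in the other controls and 34.1 to 52.04 in shXbp1, and without that library its edgeR difference was 0.49. In that library all 10 microglia markers that were measured summed to 8755, and the 3 measured monocyte and macrophage markers to 4044. Their part in such values was not tested.

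The mitochondrial list was made of all 14 Slc25 members, taken by family number rather than by the known site of each. Slc30a9 and Slc24a6, also named here as mitochondrial, stand in other lists. It was the most abundant list, with a summed signal of 2476 to 3270 in the controls and 2132 to 3380 in shXbp1. By limma 10 were higher and 4 lower (median 0.32), by edgeR 8 and 6 (median 0.05), and 0 of 14 were called by limma or edgeR. For Slc25a5 shScrmbl replicates 1 to 4 had a signal of 843, 1239.8, 559 and 883, and shXbp1 replicates 1 to 4 had 443, 1323, 416 and 1023. High and low libraries were present in both groups, with a difference of -0.26 (95% interval -1.02 to 0.50). Slc25a4 is the form typical of muscle, heart and brain, and for it shScrmbl replicates 1 to 4 had a signal of 1143, 417, 825 and 717, and shXbp1 replicates 1 to 4 had 853, 664, 687 and 969 (776 ± 299.7 against 793 ± 144, mean ± SD, n = 4 each). The control range held every shXbp1 library, and the interval of the limma difference was -0.53 to 0.74. In Slc25a3, the phosphate carrier, shScrmbl replicates 1 to 4 had a signal of 341, 274, 506 and 331, and shXbp1 replicates 1 to 4 had 273, 457, 364 and 538, which again overlap, with an interval of -0.53 to 0.85. Slc25a39 was the least even of the 4, with 421, 109.6, 186 and 27.6 in the controls and 205, 241, 271 and 359 in shXbp1. The control range holds the whole shXbp1 range, since shScrmbl replicate 4 read 27.6 and replicate 1 read 421. The other 10 carriers, among them the NAD carrier Slc25a51 (mean 164) and the aspartate/glutamate carrier Slc25a12 (72.4), had means from 18.9 in Slc25a1, the citrate carrier, to that of Slc25a51.

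Carriers of the ER, Golgi and nucleotide sugars counted 11, the 10 Slc35 members and Slc39a7. On the edgeR scale 2 were higher and 9 lower with a median of -0.54 beside 0.05 for all genes, but on the limma scale 6 were higher and 5 lower with a median of 0.25. Without shScrmbl replicate 2 edgeR gave 5 higher and 6 lower with a median of -0.08. The list's summed signal was 481, 864, 586 and 634 in the controls and 426, 640.0, 333 and 544 in shXbp1, so the groups overlapped and the highest value was again that library. None of the 11 was called by limma or edgeR, and Slc35g1, above, was the only one at an unadjusted p under 0.05 in either. Slc35b1 exchanges ATP for ADP across the ER membrane and feeds the chaperones of its lumen. For Slc35b1 shScrmbl replicates 1 to 4 had a signal of 40.1, 105, 186 and 27.6, and shXbp1 replicates 1 to 4 had 68.2, 149, 41.6 and 106. Both groups held high and low libraries (89.9 ± 72.8 against 91.3 ± 46.8, mean ± SD, n = 4 each). Slc39a7 releases zinc from the ER, and its signal was 80.2, 46.4, 79.9 and 82.7 in the controls and 68.2, 77, 31.2 and 66.4 in shXbp1. The shXbp1 values lay among or below the controls, with an interval of -1.34 to 0.77. Slc35e2, whose substrate is not established, read 100.3, 269.9, 79.9 and 82.7 and 153, 96.2, 83.3 and 92.96, with 1 high control library. The carriers of known Golgi substrates were sparse. Slc35a1 (CMP-sialic acid), Slc35a2 (UDP-galactose), Slc35b2 (the sulfate donor PAPS), Slc35c2 (linked to GDP-fucose) and Slc35d2 (UDP-N-acetylglucosamine) had means of 26.5, 23.6, 33.04, 25.7 and 14.1, close to the worth of a single count in the shallow libraries.

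The amino acid list held 11 members. By limma 7 were higher and 4 lower (median 0.40) and by edgeR 4 and 7 (median -0.35), which became 9 and 2 (median 0.49) without shScrmbl replicate 2. None was called by limma or edgeR. Of the listed ATF4 targets 3 were measured. Slc38a2, described above, was higher on both scales. Slc3a2 read 181, 422, 319.5 and 248 in the controls and 136, 250.2, 302 and 252 in shXbp1. All but 1 shXbp1 library lay inside the control range, and the interval of the limma difference was -1.09 to 0.48. Slc7a11, the cystine/glutamate exchanger that pairs with Slc3a2, read 0, 88.6, 26.6 and 27.6 and 0, 33.7, 41.6 and 0. It was at 0 in 1 control library and 2 shXbp1 libraries, and its highest value was shScrmbl replicate 2. The summed signal of the 3 was 487 ± 166 in the controls and 511 ± 118 in shXbp1 (SD, n = 4 each). Slc7a2, which takes up arginine and lysine, read 60.2, 228, 53.3 and 82.7 and 153, 120.3, 125 and 79.7, with a single high control library and a sign that turned between limma (0.40) and edgeR (-0.17). The Slc38 family held 5 members with edgeR differences from -0.48 to 1.68, 3 of them higher, and its summed signal was 256 ± 89.9 in the controls and 390 ± 70.0 in shXbp1. The groups of that sum overlap, and Slc38a2 makes up the larger share of it.

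The list made for GABA, glycine and monoamine carriers had 6 measured members, and by known main substrate only Slc6a2 is such a carrier. Slc6a20b, Slc6a6, Slc6a8, Slc17a5 and Slc17a8 are known for imino acids, taurine, creatine, sialic acid and glutamate. The list turned in direction with the scale, and only 1 of the 6 kept its sign. All 6 members were lower by edgeR (median -0.42) while 5 of 6 were higher by limma (median 0.26), and without shScrmbl replicate 2 edgeR had 5 higher and 1 lower (median 0.10). Summed over the list that library read 2028 beside 481 to 662 in the other controls and 731 to 803 in shXbp1. Slc6a2, Slc6a6 and Slc17a8 had their highest signal in that library too, while Slc6a8 and Slc17a5 did not. Most of the sum was Slc6a20b, for which shScrmbl replicates 1 to 4 had a signal of 321, 1712, 373 and 496, and shXbp1 replicates 1 to 4 had 579.8, 544, 635 and 637. The shXbp1 libraries were tight, and 3 of 4 controls lay below all of them. Slc6a20b overlaps Sacm1l on the opposite strand, so its signal may hold reads of that gene. The taurine carrier Slc6a6 read 0, 88.6, 53.3 and 82.7 and 0, 81.8, 31.2 and 39.8, with a 0 in each group. Slc17a5, the sialic acid exporter of lysosomes, was even across libraries, with 40.1, 59.04, 26.6 and 55.2 and 68.2, 33.7, 41.6 and 39.8. Slc6a2, the noradrenaline carrier known from neurons, read 20.1, 92.8, 26.6 and 0 and 34.1, 19.2, 41.6 and 26.6, on 24 and 14 counts, and its sign differed between limma (0.98) and edgeR (-0.90). None of the 6 was called by limma or edgeR, nor had an unadjusted p under 0.05.

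Sugar and monocarboxylate families gave 8 members, of which 7 were higher and 1 lower on both scales, the same members on each. Their median was 1.03 by limma beside 0.42 for all genes, and 0.58 by edgeR beside 0.05. Without shScrmbl replicate 2 edgeR left 6 higher and 2 lower, with a median of 0.31 beside 0.19. None was called by limma or edgeR, and none had an unadjusted p under 0.05. The lower one is Slc5a6, the vitamin carrier, which the family number rather than its substrate places here. Slc5a3, which brings in the osmolyte myo-inositol, read 100.3, 37.95, 26.6 and 55.2 in the controls and 153, 43.3, 135 and 66.4 in shXbp1. Its groups overlap, with an interval of -0.32 to 2.004, and it shares its place on the same strand with Mrps6. Slc2a12, a glucose carrier, read 100.3, 21.1, 0 and 27.6 and 51.2, 43.3, 52.04 and 86.3, with shScrmbl replicate 1 above every other library, and overlaps Tbpl1 on the opposite strand. The lactate carrier Slc16a1 and the related Slc16a9 had edgeR differences of 1.02 (adjusted p = 0.876) and 1.59 (adjusted p = 0.762), on means of 31.5 and 29.7. Without shScrmbl replicate 2 these differences were 0.003 and 0.36. Astrocyte markers were higher in the same libraries, at a summed 671 to 1103 in the controls and 1275 to 1893 in shXbp1. By edgeR most markers of choroid plexus (7 of 10), endothelium (3 of 4), fibroblasts (3 of 3) and ependyma (3 of 3) were higher too. The 1 neuron marker measured was also higher, and all these other sums overlapped. Of microglia, monocyte and oligodendrocyte markers 0 of 10, 0 of 3 and 2 of 7 were higher. The part of any of these in the list's values was not tested.

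Inorganic ion carriers counted 14, with 11 higher and 3 lower by limma (median 0.55) and 7 of each by edgeR (median -0.15). None was called by limma or edgeR. Slc12a2 loads chloride into cells, and for it shScrmbl replicates 1 to 4 had a signal of 582, 169, 186 and 276, and shXbp1 replicates 1 to 4 had 546, 342, 354 and 452. The lowest shXbp1 library lay above 3 of 4 controls while shScrmbl replicate 1 was the highest of all (303 ± 192 against 423 ± 95.3, mean ± SD, n = 4 each), and the interval of the limma difference was -0.15 to 1.43. Slc24a6, annotated as Slc8b1 and known as the sodium/calcium exchanger of mitochondria, read 201, 413, 107 and 193 and 188, 139.6, 208 and 146. Its shXbp1 libraries all fell inside the control range. Slc4a10 and Slc4a5, sodium-driven bicarbonate carriers that choroid plexus epithelium is known for, read 80.2, 88.6, 159.8 and 165 against 239, 154, 93.7 and 133, and 120.4, 50.6, 133 and 0 against 51.2, 86.6, 62.5 and 99.6. Both overlap between the groups. Slc4a5 is also on the list of choroid plexus markers. Their summed signal, mostly Ttr, was 211610 to 309747 in the controls and 149221 to 273800 in shXbp1. By edgeR 7 of the 10 measured were higher and 3 lower. The Slc4 family, with Slc4a1ap counted in, was the only one of the 11 families with at least 3 members whose summed signal did not overlap. It was 341, 232, 319.5 and 248 in the controls and 409, 342, 343 and 359 in shXbp1, and the groups were separated by less than the worth of 1 count in any library. The sum of the astrocyte markers was 671 to 1103 in the controls and 1275 to 1893 in shXbp1, also without overlap. Of these, 9 of 10 were higher by edgeR. Besides those of choroid plexus, most markers of endothelium (3 of 4), fibroblasts (3 of 3) and ependyma (3 of 3) were higher by edgeR. The 1 neuron marker measured was higher too, and all these other sums overlapped. Of microglia, monocyte and oligodendrocyte markers 0 of 10, 0 of 3 and 2 of 7 were higher. The part of any of these in the Slc4 sum was not tested.

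The 9 zinc, copper and other metal carriers were higher in 8 cases by limma (median 0.83) and in 7 by edgeR (median 0.09, beside 0.05 for all genes), and none was called by either. Slc31a1, the copper importer, read 120.4, 194, 107 and 27.6 in the controls and 136, 164, 125 and 126 in shXbp1. The 4 shXbp1 libraries were closely spaced inside the control range, and the gene overlaps Cdc26 on the opposite strand. Slc41a1, a magnesium carrier, read 20.1, 21.1, 26.6 and 55.2 and 34.1, 52.9, 31.2 and 46.5. Its interval of -1.32 to 2.32 allows a difference in either direction. Slc30a9, above, was the one metal carrier at an unadjusted p under 0.05. The summed signal of the list was 381, 417, 346 and 248 in the controls and 443, 529, 479 and 405 in shXbp1, so only the lowest shXbp1 library fell within the control range. The 5 Slc39 zinc importers had edgeR differences from -0.17 to 1.09, with 3 higher and 2 lower.

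Carriers of lipids, vitamins, nucleosides, peptides and organic ions were the longest list with 17 members. By limma 10 were higher and 7 lower (median 0.19), by edgeR 7 and 10 (median -0.26), and none was called by either. Without shScrmbl replicate 2 the edgeR split turned to 11 higher and 6 lower (median 0.22). Slc28a3 and Slc29a3 were described above, and both carry nucleosides. For Slc22a17, whose promoter window is printed above, shScrmbl replicates 1 to 4 had a signal of 241, 101, 159.8 and 248, and shXbp1 replicates 1 to 4 had 153, 255, 260.2 and 425. Its groups overlap (187 ± 70.1 against 273 ± 112, mean ± SD, n = 4 each), with a limma difference of 0.54 (95% interval -0.31 to 1.39) and an edgeR difference of 0.69 (adjusted p = 0.794; 0.35 without shScrmbl replicate 2). Slc23a1 takes up ascorbate, and its signal was 140.4, 485, 53.3 and 138 in the controls and 136, 168, 208 and 179 in shXbp1. The control range from 53.3 to 485 held every shXbp1 library, and the gene overlaps Paip2 on the opposite strand. Slc13a4, a sulfate carrier and a choroid plexus marker here, read 140.4, 181, 53.3 and 138 and 85.3, 178, 52.04 and 139, with groups of the same range. Slc29a4, another of the choroid plexus markers, had a mean of 91.1 and an edgeR difference of 0.90 (adjusted p = 0.814; 0.25 without that library). The 3 Slc22 members had edgeR differences from -0.34 to 0.69. Outside all lists stood Slc1a7, Slc4a1ap, Slc9a3r1 and the iron carrier Slc11a2, whose means lay between 24.7 and 34.9.

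How many members a library held followed its depth. In the astrocyte controls 19, 2, 25 and 19 of 93 members were at 0, and in shXbp1 15, 0, 2 and 2. shScrmbl replicates 1, 3 and 4 and shXbp1 replicate 1, with 32842 to 53228 counts, had 42 to 50 members at only 1 to 3 counts. In the other 4, with 85398 to 302003 counts, 5 to 38 members were this sparse. A 0 is not the absence of a transcript at this depth: in shScrmbl replicate 4 a member at 0 may have had a signal of up to 82.7 (3 counts), more than the mean of most members, whereas in shScrmbl replicate 2 the limit was 12.7. Members took 0.719% to 0.912% of all counts in the 8 libraries, and the 95% Wilson intervals together ran from 0.637% to 1.01%. The share was 0.871%, 0.844%, 0.719% and 0.904% in the controls and 0.806%, 0.865%, 0.912% and 0.891% in shXbp1. The groups overlap in this share. Intervals and limits from counts cover counting error only.

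**Figure D4:**
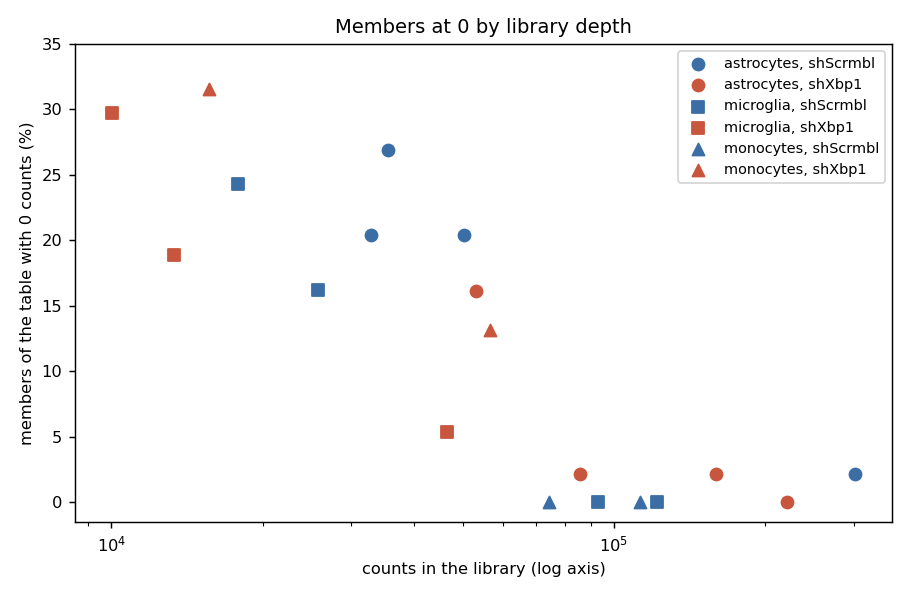
Share of the table's members with 0 counts (%) against the counts in each library (log axis), for the 19 libraries by cell type (shape) and hairpin (colour). Libraries under about the depth of the shallow astrocyte controls miss up to 31.6% of their members, and 3 of the 4 shallowest astrocyte libraries are shScrmbl.

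Whether a member was also in the microglia and monocyte tables split the astrocyte differences. The 31 members in all 3 tables had 9 higher and 22 lower by edgeR (median -0.35), and the 49 in the astrocyte table alone had 31 higher and 18 lower (median 0.25). By limma the medians were 0.19 and 0.50, beside 0.42 for all genes. Without shScrmbl replicate 2 the edgeR medians became 0.29 and 0.15, so the order of the 2 sets reversed. The microglia markers had 0 of 10 higher by edgeR, and the monocyte and macrophage markers 0 of 3. Both sums were highest in that library, and their part in the split was not tested.

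**Figure D5:**
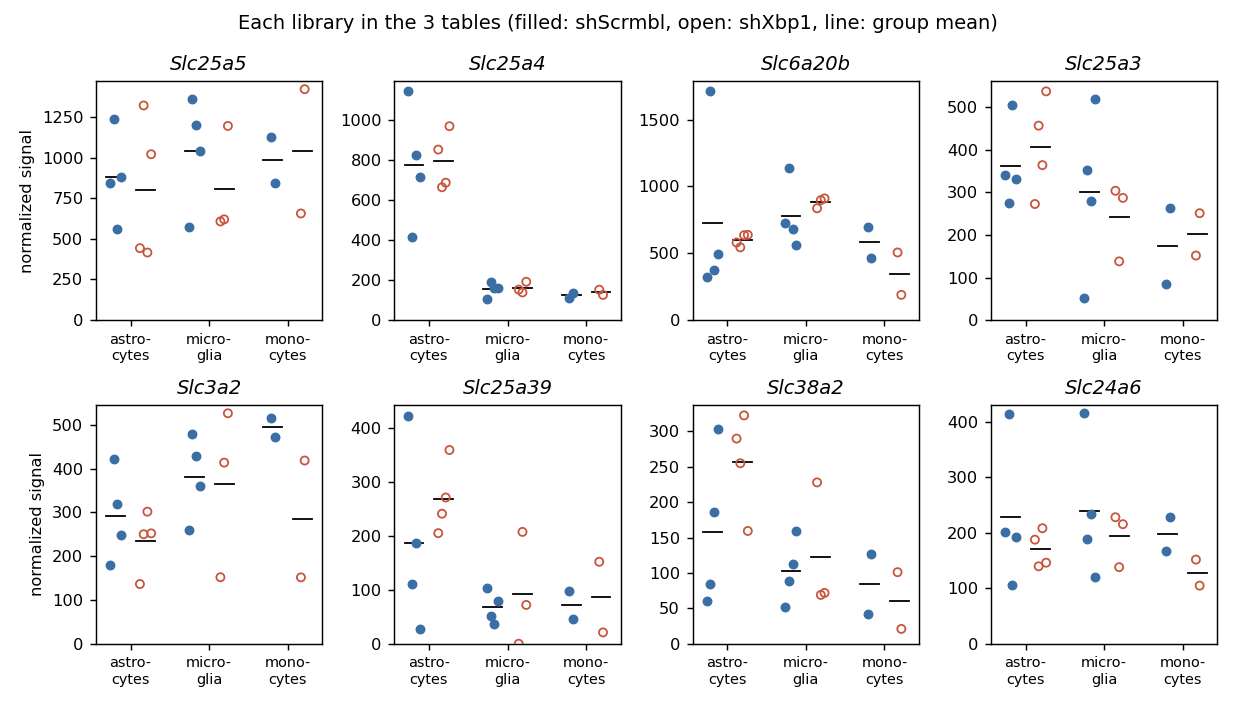
Normalized signal in each library for the 8 members with the highest astrocyte mean among those in all 3 tables; filled points are shScrmbl, open points shXbp1, and lines are group means (4 and 4 astrocyte, 4 and 3 microglia, 2 and 2 monocyte libraries). Each table was normalized separately. Slc25a4 lies between 417 and 1143 in astrocytes and at 192 or below in the other tables, while Slc25a5 spans similar values in all 3.

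The tables were normalized separately, so levels across them are set side by side without a test. Slc25a4 read 417 to 1143 in astrocytes, 104 to 192 in microglia and 112 to 152 in monocytes. Slc25a5, its relative, read 416 to 1323, 571 to 1363 and 657 to 1424. Slc38a2 and Slc25a39 also reached higher in astrocytes, at 60.2 to 323 and 27.6 to 421, than in microglia (51.9 to 228 and 0 to 207) or monocytes (20.9 to 127 and 20.9 to 152). Slc3a2 spanned similar values, with 136 to 422 in astrocytes, 152 to 527 in microglia and 152 to 517 in monocytes.

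The Gfap promoter is not known to act in microglia, so these libraries ask how cells beside the transduced astrocytes differ. Of the members there, 0 of 37 members were called by limma (0% of 3066 genes) or by edgeR, which called 12 of 3066 genes (0.391%), or by DESeq2. At an unadjusted p under 0.05 limma listed 1 member (5.41% of all genes) and edgeR 2 (5.48%). By limma 17 were higher and 20 lower, with a median of -0.19 beside -0.39 for all genes, of which 34.5% were higher, and by edgeR 14 and 23, with a median of -0.02 beside -0.09, where 44.6% of all genes were higher. The depth was 10039 to 122002 counts. For Slc7a2, the member with the smallest limma p (adjusted p = 0.804), the controls had 208, 239.8, 149 and 80 and shXbp1 0, 0 and 168. It was at 0 in the 2 shallowest libraries, both shXbp1, and at the level of the controls in the third. By edgeR Slc43a2, a carrier of large neutral amino acids, and Slc7a11 were the 2 under an unadjusted p of 0.05 (adjusted p = 0.74 and 0.899), with differences of -1.63 and -1.95. Slc43a2 read 0, 252, 159 and 280.0 against 76, 138 and 23.9, and Slc7a11 51.9, 227, 84.01 and 0 against 0, 0 and 47.9. Both overlapped between the groups. The pooled ratio of Slc7a11, on 2 shXbp1 counts, was 0.237 with an exact binomial interval of 0.0274 to 0.941, which leaves out the spread between libraries. Groups that do not overlap were seen in 2 of 37 members and Slc35g1 was the higher one (2.32% of all genes were) and Slc37a2, a carrier of phosphate and sugar phosphate in the ER, the lower one (4.92%). Slc35g1 read 51.9, 50.5, 56.01 and 40 in the controls and 152, 68.99 and 71.8 in shXbp1, on 1 to 6 counts per library, which is the reverse of its order in astrocytes. The limma adjusted p of Slc35g1 in microglia was 0.872. Slc37a2 read 104, 101, 84.01 and 80 and 76, 68.99 and 71.8, a gap narrower than the worth of 1 count in any library. Markers of other cells stood at other levels in shXbp1 here. The 8 measured monocyte and macrophage markers summed to 5035 to 23218 in the controls and 1672 to 8072 in shXbp1, with 0 of 8 higher by edgeR and overlapping groups. The 2 measured oligodendrocyte markers summed to 345 to 520.0 and 670.4 to 1518, without overlap. Their part in the members' values was not tested.

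In monocytes limma called 101 of 3775 genes (2.68%), 100 of them lower, and 99 of the 101 (98%) were at 0 in both shXbp1 libraries. Of 38 members 2 were called by limma, both lower (2.65% of all genes were), and both were at 0 in that way. At an unadjusted p under 0.05 limma listed 4 members (4.77% of all genes). edgeR called 1 gene (0.0265%) and no member, with 2 members at an unadjusted p under 0.05 (4.72% of all genes), and DESeq2 called none. Slc6a2 fell from 55.9 and 45.5 in the controls, on 4 and 5 counts, to 0 and 0 (limma adjusted p = 0.00516, edgeR adjusted p = 0.923). Slc35d2, named after its values were seen, fell from 55.9 and 81.95, on 4 and 9 counts, to 0 and 0 (limma adjusted p = 0.00901, edgeR adjusted p = 0.923). The pooled control signal was 1.12-fold and 1.61-fold a floor of 3 counts over the shXbp1 group. These ratios leave out counting error in the controls and the spread between libraries, so they are no lower bounds. The shXbp1 libraries were the shallow ones, with 15654 and 56625 counts beside 74340 and 112676, and 12 and 5 of their 38 members were at 0 beside none in either control. A count was worth 50.6 in shXbp1 replicate 1, near the control level of Slc6a2, and the part of depth in these calls was not tested. With edgeR, DESeq2, pseudocounts of 10 and 50, quantile scaling, or without either control library, neither gene was called, and a filter at a mean signal of 50 removed both before the test. Leaving out shXbp1 replicate 1 or 2, limma called 486 and 1163 genes, 7 and 13 of them members.

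Over the 38 monocyte members limma had 7 higher and 31 lower, with a median of -0.91 beside -0.42 for all genes, of which 34.2% were higher. By edgeR 11 were higher and 27 lower, with a median of -0.84 beside -0.17 for all genes, of which 43% were higher. Groups did not overlap in 20 members, 2 higher and 18 lower, beside 9.85% and 25% of all genes. The 4 Slc6 members were all lower. The taurine carrier Slc6a6 read 83.8 and 228 in the controls and 50.6 and 20.9 in shXbp1, with an edgeR difference of -2.36 (adjusted p = 0.923). Its pooled ratio was 0.173 (exact binomial interval 0.0201 to 0.681) on 2 shXbp1 counts, and that interval leaves out the spread between libraries. Slc6a20b read 699 and 464 and 506 and 188, and the creatine carrier Slc6a8 27.9 and 91.1 and 50.6 and 0. Slc3a2 read 517 and 473 and 152 and 419, without overlap. The 2 members higher without overlap were Slc39a7 (13.97 and 36.4 against 152 and 41.9) and the scaffold Slc9a3r1 (55.9 and 54.6 against 152 and 62.8). Slc25a5 and Slc25a4 had no such gap, at 1132 and 847 against 657 and 1424 and at 112 and 137 against 152 and 126. Monocyte markers were lower in shXbp1 too, summing to 19149 and 19759 in the controls and 4702 and 14907 in shXbp1, with 4 of 8 measured markers higher by edgeR. The sum of the 10 microglia markers was lower as well, at 14826 and 17820 against 8342 and 14718, with 5 of 10 higher by edgeR. The 2 measured choroid plexus markers were higher, at 3745 to 4826 against 5192 to 8039, as was the 1 endothelial marker measured, at 45.5 to 97.8 against 101 to 147. None of these sums overlapped between the groups, and their part in the members' values was not tested.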

How the data were processed

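The study sorted astrocytes, microglia and monocytes and counted RNA at transcript ends in 19 libraries (3′ digital gene expression, per the labels' protocols). The authors' deposited values are a normalized signal for each gene in each library, in 1 table per sorted population. BWA 0.7.10, limma 3.34.1 and the mm10 build are named in the submitters' processing notes, and the counter, annotation, scaling and any filter on low genes are not given in the sources used here. The lowest total per gene was 17, 15 and 9 counts in astrocytes, microglia and monocytes, so genes under some such limit may be missing. In each deposited signal column, values were whole multiples of what 1 count is worth (100% of values within 0.01 of a whole count), and those counts were recovered. Astrocyte libraries held 32842 to 302003 counts, microglia 10039 to 122002 and monocytes 15654 to 112676. No 2 libraries were identical, with a chi-square per gene of 1.29 to 4.01 over 23 pairs of replicates. No column of per-sample values was set aside.

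The shXbp1 and shScrmbl libraries of a cell type were compared without the other cell types, with limma 3.58.1 (trend, robust) on log2(signal + 1), for genes that reached a signal of 1 in a number of libraries no lower than the size of the smaller group. Benjamini-Hochberg adjustment ran over all genes tested, with a threshold of 0.05. edgeR 4.0.16 (quasi-likelihood test) and DESeq2 1.42.0 on recovered counts were alternatives, with R 4.3.3 and Python 3.11.15, and the fits were tested on simulated data. Other alternatives were pseudocounts of 10 and 50, no filter, a mean signal of at least 50, quantile scaling, a replicate block and leaving out each library. The fits without shScrmbl replicate 2 by edgeR and with a crossed block were chosen after seeing the data. Libraries with the same number did not deviate together in astrocytes (correlations of -0.0691 to 0.0569) or microglia (-0.0264 to 0.0347), so replicate numbers were not taken as pairs. In monocytes the correlation was -0.116 for the same number and 0.116 for crossed numbers. With 2 libraries per group these mirror each other, so they cannot decide the pairing, and no pairs were taken there either.

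Members and lists were chosen with earlier results of these data known. Slc4a1ap was set apart from the ion carriers after the table's symbols were seen. Members were named by a rule: the 10 with the highest astrocyte mean, the 10 with the smallest limma p there, those whose astrocyte groups do not overlap, up to 4 of each list, and the 8 most abundant in all 3 tables. Of these, 1 member is counted in its lists and is not reported here. Lists were described by counts and medians without a test of the list. Gene positions came from GENCODE M21 (GRCm38, also called mm10), and promoter sequences from RefSeq.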

Additional observations from a re-analysis of the deposited data

Results flagged for a closer look

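A library was looked for that stands apart from the others of its group, in 78 groups of 4 libraries of the named members, and 8 did, where the limit used is passed by chance in about 1 in 20 groups of normally distributed values. Signals from a few counts are not so distributed, and 3 libraries at 0 pass it whatever the remaining one reads, as for Slc9a9 and Slc4a7. In shScrmbl replicate 2 of astrocytes, the deepest library, Slc6a20b (1712 beside 321 to 496), Slc35e2 (269.9 beside 79.9 to 100.3), Slc7a2 (228 beside 53.3 to 82.7), Slc9a9 (109.6 beside 0) and Slc4a7 (42.2 beside 0) were far above the other controls. Slc39a7 was far below them there (46.4 beside 79.9 to 82.7). The same library had the highest summed signal of microglia markers and of monocyte and macrophage markers. In shScrmbl replicate 1 Slc35g1 stood low (80.2 beside 105 to 110.3). In shXbp1 replicate 3 Slc25a23 stood high (72.9 beside 26.6 to 34.1).

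Slc35g1 was lower in every shXbp1 library of astrocytes (limma log2 difference -1.43, adjusted p = 0.824). It was higher in every shXbp1 library of microglia (0.87, limma adjusted p = 0.872), on 1 to 6 counts per library. In microglia shXbp1 replicate 2 a single count was worth 68.99, above every control value (40 to 56.01), so the order there may come from depth. The difference between the cell types was not tested, and the tables were normalized separately.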

How the results depend on the processing

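Of 53 log2 differences of named members, none was called in astrocytes or microglia by any alternative run. Some changed sign. By edgeR these were, in astrocytes, Slc17a5 (-0.22), Slc23a1 (-0.48), Slc4a7 (-0.35), Slc6a2 (-0.90), Slc6a20b (-0.38), Slc7a2 (-0.17) and Slc9a9 (-1.17), in microglia Slc25a3 (-0.29), Slc25a39 (0.68) and Slc38a2 (-0.012), and in monocytes Slc25a5 (0.12). By DESeq2 they were Slc17a5 (-0.22), Slc23a1 (-0.46), Slc25a4 (-0.032), Slc35b1 (-0.013), Slc6a2 (-0.66), Slc6a20b (-0.40), Slc7a2 (-0.13) and Slc9a9 (-0.75), then Slc25a3 (-0.29) and Slc25a39 (0.61) in microglia, and Slc25a39 (0.11) and Slc25a5 (0.15) in monocytes. With a pseudocount of 10 Slc25a3 in microglia became -0.015, and with 50 it became -0.072, with Slc25a39 at 0.013 there and 0.0094 in monocytes. Quantile scaling turned Slc17a5 (-0.19) and Slc6a2 (-0.62) in astrocytes and Slc25a39 in microglia (0.91) and monocytes (0.36). The cause was not tested.

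The members' median in astrocytes was -0.087 by edgeR, -0.13 by DESeq2, -0.10 with quantile scaling and 0.057 with a pseudocount of 50. In monocytes it was -0.47 with that pseudocount and -0.61 with quantile scaling. All genes called numbered 1 by edgeR in astrocytes, 12 by edgeR, 6 with quantile scaling and 1 with a pseudocount of 50 in microglia, and 1 by edgeR in monocytes. In monocytes that number and the called members were 0 by DESeq2, with pseudocounts of 10 and 50, with quantile scaling and with a mean signal of at least 50, which removed both called members before the test, and the called members were 0 by edgeR. Members whose groups do not overlap numbered 1 in microglia with quantile scaling and 10 in monocytes with a mean signal of at least 50. The share of all genes without overlap in these runs is not given here.

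By limma, leaving out a library in turn gave ranges that cross 0 for some named members. In astrocytes these were Slc13a4 -0.56 to 0.13, Slc17a5 -0.19 to 0.18, Slc23a1 -0.30 to 0.75, Slc24a6 -0.58 to 0.066, Slc25a4 -0.16 to 0.32, Slc35b1 -0.17 to 0.73, Slc35e2 -0.35 to 0.24, Slc4a5 -0.36 to 1.995, Slc6a2 -0.33 to 1.86, Slc6a20b -0.19 to 0.61 and Slc6a6 -2.03 to 0.92. By the same fits they were in microglia Slc24a6 -0.48 to 0.12, Slc25a3 -0.70 to 0.40, Slc25a39 -2.91 to 0.94, Slc25a4 -0.086 to 0.20, Slc38a2 -0.43 to 0.42 and Slc3a2 -0.57 to 0.33, and in monocytes Slc25a3 -0.43 to 1.21, Slc25a39 -1.63 to 1.17, Slc25a5 -0.57 to 0.54 and Slc38a2 -1.76 to 0.46. By edgeR without shScrmbl replicate 2 in astrocytes, beside edgeR with all libraries, members whose sign turned included Slc13a4 (0.097 beside -0.21), Slc25a4 (-0.22 beside 0.061), Slc25a5 (0.074 beside -0.14), Slc35e2 (0.16 beside -0.62), Slc4a5 (-0.17 beside 0.16), Slc6a6 (0.17 beside -0.46) and Slc7a11 (0.31 beside -1.28). By limma 0 genes were called in astrocytes without any 1 library, and edgeR called 1 with all libraries and 1 without shScrmbl replicate 2. Genes called by limma ran from 0 to 3 in microglia and 0 to 1163 in monocytes, where members called ran from 0 to 13 and their median from -1.22 to -0.47. Members without overlap ran from 4 to 13 in astrocytes, 2 to 6 in microglia and 25 to 31 in monocytes. Groups that do not overlap stay apart when a library is left out, so such numbers can only rise, for any gene. The share of all genes without overlap in these fits is not given here, so the numbers do not set members apart from other genes. In monocytes such a fit leaves 1 arm with 1 library, which is assumed to vary like the other arm.

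With a replicate block limma called 0 genes in astrocytes and in microglia, and 112 genes and 2 members in monocytes, so it changed no call of a member. The crossed pairing called 114 genes and 2 members in monocytes. Depth limits all of this: 42 to 50 of 93 members rest on 1 to 3 counts in the 4 shallowest astrocyte libraries, and a member at 0 in monocyte shXbp1 replicate 1 may have had a signal of up to 152.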
